A study of Mus musculus with 8 samples.

Results

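Serine synthesis and folate one-carbon metabolism are described here through 9 enzyme genes of B16 cells, a mouse melanoma line, with and without an edit of Mettl5. The members are Phgdh, Psat1, Psph, Shmt1, Shmt2, Mthfd1, Mthfd2, Mthfd1l and Aldh1l2, taken by gene name from the deposited table. All 9 were present among its 10453 genes. The study sequenced input RNA and ribosome footprints, the stretches of mRNA that ribosomes shield from nuclease, after cycloheximide had halted ribosomes on the mRNA. Wild-type cells (WT) were compared with Mettl5 knockout cells (KO) made by CRISPR/Cas9 editing; both were B16 cells in standard medium with serum, and the time in culture is not given in the sources used here. METTL5 places m6A on 18S rRNA, and by its title the study asked how it affects stress response genes. All libraries were depleted of rRNA after lysis in polysome buffer, though the labels also call the molecule polyA RNA. There were 4 groups (WT input, KO input, WT footprints, KO footprints) with 2 libraries each. The labels do not say whether replicates were separate cultures or whether KO was 1 clone. The p-values therefore rest on the spread between these libraries alone, and that spread may be technical. Between replicates, counts varied 1.10 (WT input) to 1.22 (KO input) times as much as read counting alone would give (mean chi-square per gene). Small p-values thus say little about how a change would vary between cultures or clones.

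Serine is made from the glycolytic intermediate 3-phosphoglycerate by PHGDH, PSAT1 and PSPH in turn. SHMT1 in the cytosol and SHMT2 in mitochondria then split serine into glycine and a one-carbon unit carried on tetrahydrofolate. In mitochondria MTHFD2 oxidises that unit, MTHFD1L releases it as formate for export, and ALDH1L2 can burn it to carbon dioxide with formation of NADPH, while in the cytosol MTHFD1 takes formate back into the folate pool used for purine and thymidylate synthesis. Several of these genes are known targets of ATF4, the transcription factor of the integrated stress response, and proliferating tumour cells often express them highly.

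Summed over the deposited genes, libraries held between 11927567 and 18823632 reads in input and between 2279456 and 3098930 in footprints. By this count the KO footprint libraries were the shallowest. Per library, an enzyme had 655 to 10622 reads in input and 138 to 1994 in footprints, and all 9 passed the filter on low values. All 7 melanocyte lineage markers were in the table (Tyr, Tyrp1, Dct, Pmel, Mlana, Mitf and Sox10), and their summed level was higher in KO, at 78184 to 78499.6 normalized reads against 69308 to 69709 in WT input, and 188342 to 189927 against 142768 to 143295 in footprints. Their part in the results below was not tested. Markers of leukocytes, epithelium and endothelium were each represented by 1 gene with a summed level of at most 17.7 in any library, and 4 fibroblast markers summed to at most 133. Mettl5 itself stood at 114 and 110.6 normalized reads in WT input and at 75.7 and 95.7 in KO input (log2 fold change -0.40 ± 0.10 (SE), limma adjusted p = 0.00162), a call that 10 of 14 alternatives kept. It was lost without KO input replicate 1 (-0.23, adjusted p = 0.141), with DESeq2 (adjusted p = 0.067), in limma without trend (adjusted p = 0.118) and with both kinds of library fitted together (adjusted p = 0.236). Mettl5 overlaps Ssb in the annotation. Its footprints were 91.1 and 112.7 in WT and 108.6 and 112.2 in KO. Read totals of a gene cannot reveal a small edit, so KO stands for the libraries labelled KO.

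Upstream sequences are shown for Phgdh, Psat1 and Mthfd2, the 3 enzymes whose input RNA rose and whose window held at least 2 copies of CCAAT on the sense strand; this motif was chosen after the data were seen. Each is the 250 bases before the RefSeq start site (build GRCm38.p6), written 5′ to 3′ on the gene's strand, here the minus strand for all 3, and capitals mark CCAAT or its reverse complement ATTGG. They lie at chr3:98339970-98340219, chr19:15925060-15925309 and chr6:83317605-83317854. The Mthfd2 window lies inside the gene span annotated by RefSeq, which starts farther upstream, and Psat1 has another window, not shown, without CCAAT.
Phgdh: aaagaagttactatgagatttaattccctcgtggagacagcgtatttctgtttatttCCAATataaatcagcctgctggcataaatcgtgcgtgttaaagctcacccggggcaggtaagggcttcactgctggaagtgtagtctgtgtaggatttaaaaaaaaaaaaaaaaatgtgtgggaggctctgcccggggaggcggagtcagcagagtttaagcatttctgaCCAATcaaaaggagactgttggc
Psat1: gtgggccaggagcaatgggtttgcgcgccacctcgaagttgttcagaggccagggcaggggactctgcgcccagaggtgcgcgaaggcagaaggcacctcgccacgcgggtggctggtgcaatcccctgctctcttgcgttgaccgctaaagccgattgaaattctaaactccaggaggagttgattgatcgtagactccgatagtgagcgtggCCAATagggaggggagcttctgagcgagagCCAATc
Mthfd2: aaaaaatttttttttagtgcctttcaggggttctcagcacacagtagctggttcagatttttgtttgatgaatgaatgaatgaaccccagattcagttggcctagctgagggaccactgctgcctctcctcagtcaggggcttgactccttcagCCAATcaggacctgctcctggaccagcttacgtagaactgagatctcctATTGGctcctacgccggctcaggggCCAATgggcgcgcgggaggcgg
CCAAT, searched on both strands, was found in 6 of the 9 windows of members and in 33.8% of all 32851 windows of that length. The 9 windows belong to 8 members, and those with a match were Phgdh, Psat1, Psph, Shmt1, Mthfd1 and Mthfd2. Shmt2 and Mthfd1l, whose input RNA rose, had no match, while Shmt1 and Mthfd1, whose input RNA did not pass the test, had one. Psph also rose and is not shown because its 2 matches were both ATTGG. A link between the motif and the input changes was not tested. The composite C/EBP-ATF motif TGATGNAAN, which ATF4 can bind, was in no member's window and in 3.44% of all windows. The E-box CACGTG was likewise in no member's window and in 6.02% of all. These are matches of letters and say nothing of binding.

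In input RNA, 7 of the 9 enzymes rose in KO (limma adjusted p under 0.05), against 17.9% of all 10443 genes tested that rose (36.4% changed in either direction). The median log2 change of the 9 was 0.29, and of all genes 0.0022. None of the 9 fell, by limma, edgeR or DESeq2, also at an unadjusted p under 0.05, and the same 7 of 9 were reached in all 14 alternative settings. In bulk libraries, more cells with an mRNA and more of it per cell cannot be told apart. All 3 enzymes of serine synthesis and all 4 mitochondrial folate enzymes rose, whereas the 2 cytosolic folate enzymes, Shmt1 and Mthfd1, did not pass the test.

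Positions are given in build GRCm38.p6 from RefSeq. Phgdh (chr3:98313171-98339969), the first and committed step of serine synthesis, had 2140.4 and 2115 normalized reads in WT input and 2601 and 2620.0 in KO input. Both KO libraries lay above both WT libraries, a 1.23-fold rise (log2 change 0.29 ± 0.022 (SE), adjusted p = 2.5e-14). Its footprints were 791 and 786 in WT and 808 and 721 in KO, and the genotypes overlapped (log2 change -0.047 ± 0.084, adjusted p = 0.801). A pseudogene named for Phgdh (Phgdh-ps1) is annotated, with which reads could have been shared.

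Psat1 (chr19:15905123-15925059), the phosphoserine aminotransferase of the second step, rose 1.28-fold in input, from 1399 and 1479.9 to 1827 and 1869 normalized reads (log2 change 0.36 ± 0.026 (SE), adjusted p = 3.01e-14). Its footprints went the other way, from 4226 and 4230.2 in WT to 3879 and 3831 in KO. The groups did not overlap in either kind of library, but the footprint change was small (log2 change -0.13 ± 0.037, adjusted p = 0.0167) and passed the test in 9 of 14 alternatives.

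Psph (chr5:129765558-129787443), the phosphatase that releases serine, had the smallest increase of the 3, from 451 and 457 to 517 and 528 normalized reads in input (log2 change 0.20 ± 0.041 (SE), adjusted p = 0.000132). In footprints it stood at 949 and 931 in WT and at 814 and 795 in KO. Both KO values were below both WT values, yet the change missed the threshold (log2 change -0.23 ± 0.077, adjusted p = 0.0545); it passed in 5 of 14 alternatives. Psph overlaps Cct6a in the annotation, and Shmt2 overlaps Ndufa4l2. Mthfd1 (Gm40444 and Gm40443), Mthfd1l (Gm16074, Gm40591 and Gm25515) and Aldh1l2 (Gm51778) overlap genes annotated as lncRNA, pseudogene or snRNA. Reads of such overlapping genes may not be told apart, as the strand setting of the counting is not given in the sources used here.

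Shmt2 (chr10:127517123-127522444), the mitochondrial serine hydroxymethyltransferase, had input values of 2133 and 2085 in WT and of 2743 and 2678 in KO (log2 change 0.36 ± 0.022 (SE), adjusted p = 1.28e-16). Footprints on Shmt2 mRNA, 3347 and 3412 in WT, were 3308 and 3341 in KO, a difference within the standard error (log2 change -0.024 ± 0.040, adjusted p = 0.786). More Shmt2 mRNA was thus counted in KO at about the same number of footprints.

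Mthfd2 (chr6:83305704-83326011), the mitochondrial methylenetetrahydrofolate dehydrogenase and cyclohydrolase, showed the largest split between input and footprints. Input rose from 1126 and 1149 to 1436 and 1461 normalized reads (log2 change 0.35 ± 0.027 (SE), adjusted p = 1.69e-13). Footprints fell from 3281 and 3097 to 1925 and 1758, 1.73-fold lower in KO (log2 change -0.79 ± 0.052, adjusted p = 2.24e-11). Every KO library was above every WT library in input and below every WT library in footprints. A footprint change as low as that of Mthfd2 or lower was seen in 3.36% of all genes.

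Mthfd1l (chr10:3972892-4167081), the mitochondrial formyltetrahydrofolate synthetase that yields formate, was the only member with a call in the same direction in both kinds of library. It had 2789 and 2723 normalized reads in WT input against 3258 and 3248 in KO (log2 change 0.24 ± 0.020 (SE), adjusted p = 1.23e-12). In footprints the values were 4213 and 4538 in WT and 5616 and 5686 in KO, 1.29-fold higher (log2 change 0.37 ± 0.037, adjusted p = 4.86e-08).

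Aldh1l2 (chr10:83487447-83534146), the mitochondrial formyltetrahydrofolate dehydrogenase, had the largest input increase of the 9. It went from 318 and 316 to 482 and 509 normalized reads, 1.56-fold higher (log2 change 0.64 ± 0.046 (SE), adjusted p = 1.76e-14), a change that 1.25% of all genes reached. Its footprints were 441 and 435 in WT and 394 and 467 in KO, and the genotypes overlapped (log2 change -0.029 ± 0.11, adjusted p = 0.913). The KO footprint libraries, with 138 and 158 reads on this gene, differed by more than the mean change, and the sign turned (0.092) without KO footprint replicate 1.

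The cytosolic enzymes Shmt1 and Mthfd1 differed little in input. Shmt1 (chr11:60788897-60811265), the cytosolic counterpart of Shmt2, had 433 and 429.7 normalized reads in WT and 449.9 and 455 in KO (log2 change 0.069 ± 0.043 (SE), adjusted p = 0.218). Its footprints fell from 1335 and 1324 to 1146 and 1078 (log2 change -0.26 ± 0.066, adjusted p = 0.00905), a call that 10 of 14 alternatives kept. Mthfd1 (chr12:76254406-76319820), the cytosolic enzyme with dehydrogenase, cyclohydrolase and synthetase activities, had input values of 1434 and 1419.6 in WT and 1396 and 1370.0 in KO (log2 change -0.045 ± 0.026, adjusted p = 0.182). Footprints on Mthfd1 were 2013 and 1897 in WT and 2145 and 2201 in KO, without overlap but short of the threshold (log2 change 0.15 ± 0.052, adjusted p = 0.0545).

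Counted together in footprints, 1 of the 9 enzymes rose (Mthfd1l) and 3 fell (Mthfd2, Shmt1 and Psat1), against 6.3% of all 10453 genes that rose and 6.22% that fell (12.5% in either direction). The median log2 change was -0.047, and 0.0047 over all genes. The 3 decreases rested on unequal evidence: 1 of 9 fell without WT footprint replicate 1 or without WT footprint replicate 2, Mthfd2 in both cases, and 1 fell with DESeq2 on the recovered reads. Mthfd2 and Mthfd1l kept their calls in 13 of 14 alternatives each, losing them in limma without a trend of variance on level, where no gene of the table passed.

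**Figure D1:**
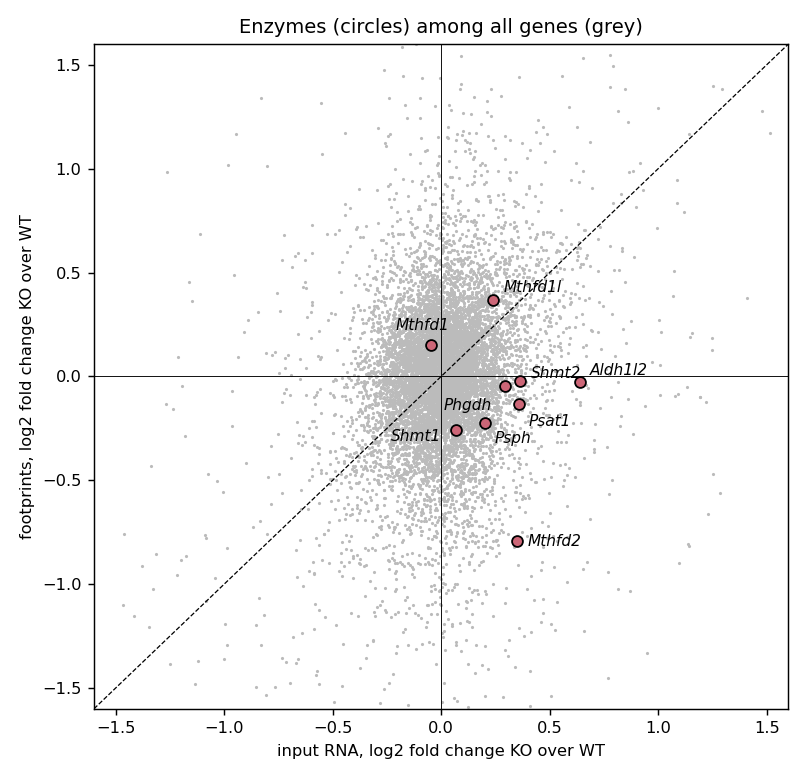
Log2 fold change, KO over WT, of input RNA (x axis) and footprints (y axis); grey points are 10390 of the 10443 genes tested (53 lie outside the axes), circles the 9 enzymes and the dashed line equal change. Mthfd2 lies at 0.35 and -0.79, Mthfd1l and Mthfd1 lie above the dashed line, and the other enzymes lie below it.

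Translational efficiency, the ratio of footprints to input, was tested as the interaction between genotype and library kind in a fit of the 8 libraries. It shares its libraries with the input and footprint comparisons, so the 3 sets of values are not independent. Of the 9 enzymes, 7 fell in KO, against 4.66% of all 10443 genes that fell, and 1 rose, against 5.11% (9.78% in either direction). The median log2 change was -0.39, and 0.0050 over all genes. Mthfd2 fell most, 2.21-fold (log2 change -1.14 ± 0.066 (SE), adjusted p = 1.13e-05), and passed in all 19 alternatives. Aldh1l2 fell 1.59-fold (-0.67 ± 0.12, adjusted p = 0.00715) and Psat1 1.41-fold (-0.49 ± 0.045, adjusted p = 0.000164).

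Of the other enzymes, Psph changed by -0.43 ± 0.070 (SE) on the log2 scale (adjusted p = 0.00509) and Shmt2 by -0.39 ± 0.038 (adjusted p = 0.000279). Phgdh changed by -0.34 ± 0.071 (adjusted p = 0.0157) and Shmt1 by -0.33 ± 0.070 (adjusted p = 0.0174). Mthfd1 was the enzyme that rose (0.20 ± 0.053, adjusted p = 0.044), a call that 9 of 19 alternatives kept. Mthfd1l, at 0.13 ± 0.047 (adjusted p = 0.118), did not pass. The formate-handling synthetases Mthfd1l and Mthfd1 were therefore the 2 members with a ratio that was not lower in KO. The decrease of 7 enzymes was also called by edgeR and by DESeq2 on the recovered reads. It was called for 5 without any 1 of the 4 input libraries in turn, when Phgdh and Shmt1 no longer passed, and for 1 (Mthfd2) in limma without the trend.

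**Figure D2:**
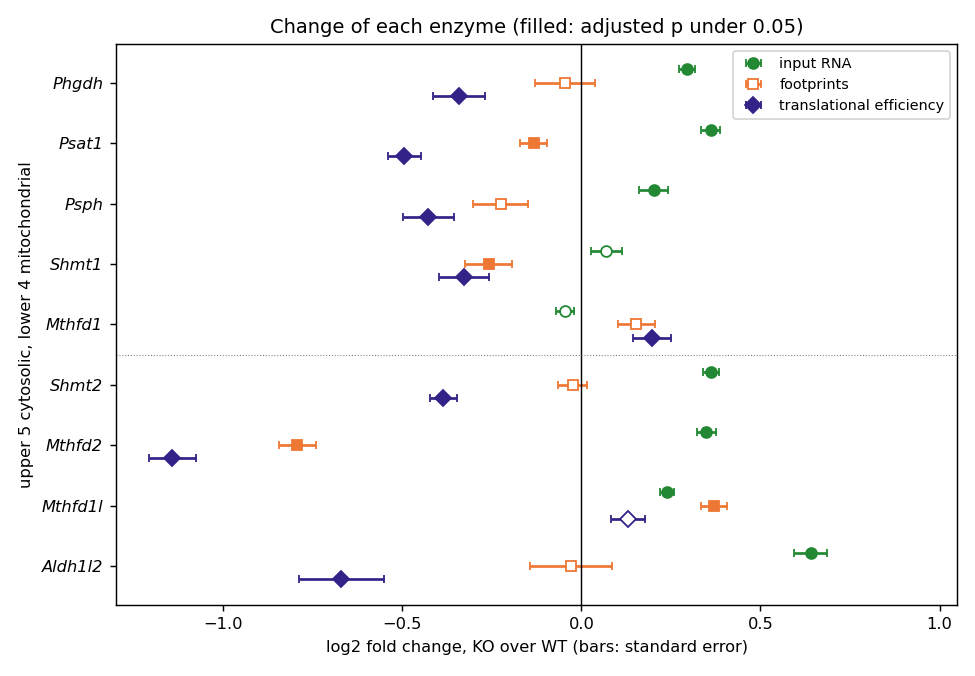
Log2 fold change of KO over WT (x axis) with its standard error for each enzyme in input RNA (circles), footprints (squares) and translational efficiency (diamonds); filled symbols passed an adjusted p of 0.05. Input changes lie at or right of 0.20 for 7 enzymes, while translational efficiency lies at or left of -0.33 for 7.

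In the authors' deposited table, Mthfd2 (log2 fold change of translational efficiency -1.14) and Aldh1l2 (-0.67) carry the call Down, as do 1.75% of all genes. Psat1 has -0.49 in the authors' deposited table and no call, with an adjusted p of 3.33e-15, since no gene with an absolute change under 0.581 is called there.

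The ratio of footprints to input on the deposited scale, with a median of 1.0 over all genes in WT and in KO, gave each enzyme's standing. Whether reads of both kinds were counted over the same part of the transcript is not given in the sources used here, and these standings are a description. In WT, Shmt1 (3.08), Psat1 (2.94) and Mthfd2 (2.80) stood at percentiles 92.5, 91.5 and 90.5 of all genes. In KO, Mthfd2 stood at 1.27, percentile 61.1, whereas Shmt1 stood at 2.46 and Psat1 at 2.09, percentiles 88.1 and 83.3. Psph went from 2.07 to 1.54, Shmt2 from 1.602 to 1.23 and Aldh1l2 from 1.38 to 0.869, which took Aldh1l2 from percentile 65.2 to 43.2. Phgdh was the exception at the low end, at 0.371 in WT and 0.293 in KO (percentiles 15.4 and 10.96). Its reads could have been shared with the annotated pseudogene Phgdh-ps1, whose part in this low ratio was not tested. Mthfd1 (1.37 in WT and 1.57 in KO) and Mthfd1l (1.59 and 1.74) had higher ratios in KO. In order of the WT ratio, Shmt1 (3.09 and 3.08 in the libraries numbered 1 and 2) and Psat1 (3.02 and 2.86) lay close together without overlap. The ratios of Psat1 and Mthfd2 (2.91 and 2.70) overlapped. So did those of Shmt2 (1.57 and 1.64) and Mthfd1l (1.51 and 1.67), and of Aldh1l2 (1.39 and 1.37) and Mthfd1 (1.40 and 1.34).

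**Figure D3:**
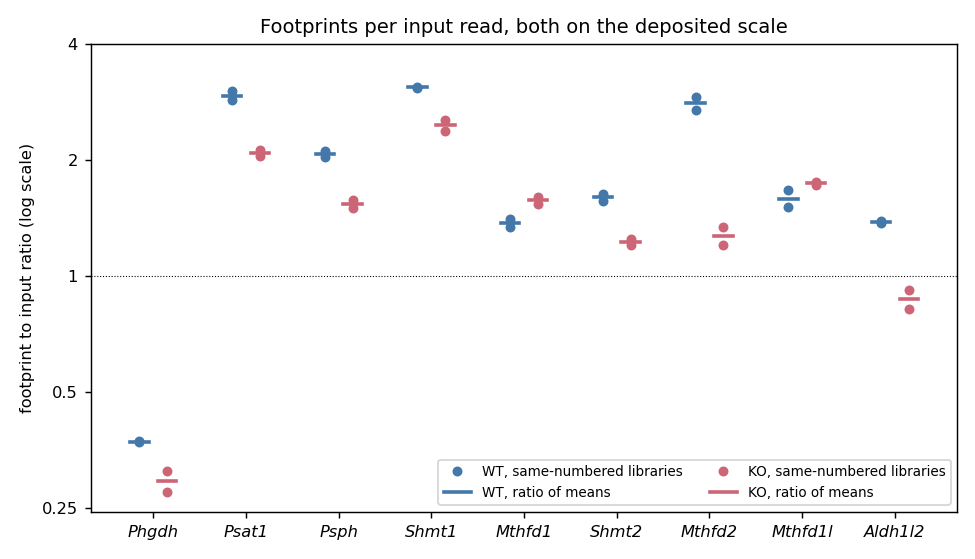
Ratio of footprints to input (log scale) per enzyme in WT (blue) and KO (red); points are libraries of the same number, short lines the ratio of group means, and the dotted line a ratio of 1. Mthfd2 moves from 2.80 to 1.27, and Mthfd1 and Mthfd1l are the enzymes with a higher ratio in KO.

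Ratios between members within a library do not depend on how libraries were scaled. With 2 against 2 libraries the exact two-sided permutation test cannot go below p = 0.33, which every ratio named here reached. Shmt2 to Shmt1 was 4.93 and 4.85 in WT input and 6.10 and 5.89 in KO input, and 2.51 and 2.58 in WT footprints against 2.89 and 3.10 in KO. The mitochondrial form was higher relative to the cytosolic form in both kinds of KO library. Mthfd1l to Mthfd1 was 1.94 and 1.92 in WT input against 2.33 and 2.37 in KO, and 2.09 and 2.39 in WT footprints against 2.62 and 2.58 in KO.

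Mthfd2 to Mthfd1 went opposite ways, from 0.785 and 0.809 to 1.03 and 1.07 in input, and from 1.63 and 1.63 to 0.897 and 0.799 in footprints. A ratio chosen after the values were seen, Mthfd1l to Mthfd2, the last and the preceding step of mitochondrial formate release, was 1.28 and 1.47 in WT footprints and 2.92 and 3.24 in KO. In input it was 2.48 and 2.37 in WT and 2.27 and 2.22 in KO, so the ratio was higher in KO in footprints and lower in input.

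The 9 enzymes took 0.213% and 0.211% of all listed reads in WT input and 0.255% and 0.254% in KO input, 1.20-fold more. In footprints they took 0.314% in each WT library and 0.299% and 0.295% in the KO libraries, 0.947 times the WT share. Without Mthfd1l, the member with the most reads, the footprint share was 0.249% and 0.245% in WT and 0.215% and 0.211% in KO (exact permutation p = 0.33, the smallest possible).

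Among neighbouring pathways, serine and glycine transport had the highest median in input and the lowest in translational efficiency of the 7 lists. Of its 8 carriers measured (of 10 listed), 6 rose and 1 fell in input, against 17.9% and 18.6% of all genes, with a median log2 change of 0.17. The 6 increases were called without any 1 input library, and 4 were called with DESeq2 or limma without trend and 2 with both kinds of library fitted together; the 1 decrease was lost in those 3 settings. In translational efficiency 4 of the 8 fell, against 4.66% of all genes, with a median of -0.31, and 3 fell without any 1 of the input libraries or without WT footprint replicate 1, and 1 in limma without trend. Slc1a4, a neutral amino acid exchanger that carries serine, rose from 133 ± 10.9 (SD, n = 2) to 246 ± 3.30 normalized reads in input (log2 fold change 0.89 ± 0.070 (SE), limma adjusted p = 2.34e-13) and fell 2.24-fold in translational efficiency (-1.16 ± 0.12, adjusted p = 0.000342), calls that held in all alternatives. The footprints of Slc1a4 did not pass the test (-0.28 ± 0.10, limma adjusted p = 0.0737). Slc38a2, a sodium-coupled neutral amino acid carrier, rose by 0.19 in input and fell by 0.39 in translational efficiency (adjusted p = 8.31e-05). The glycine carrier gene Slc6a9 (0.73) and Sfxn3 (0.26) rose in input, and Slc38a1 (-0.23) fell in translational efficiency, as did Slc1a5 (-0.39), whose call was lost without any 1 input library. In footprints 3 of the 8 fell, against 6.22% of all genes: Sfxn1, the mitochondrial serine carrier (-0.34), Slc1a5 (-0.24) and Slc38a2 (-0.19). That count was 2 without WT footprint replicate 1 or 2, 1 with DESeq2 and 0 in limma without trend.

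**Figure D4:**
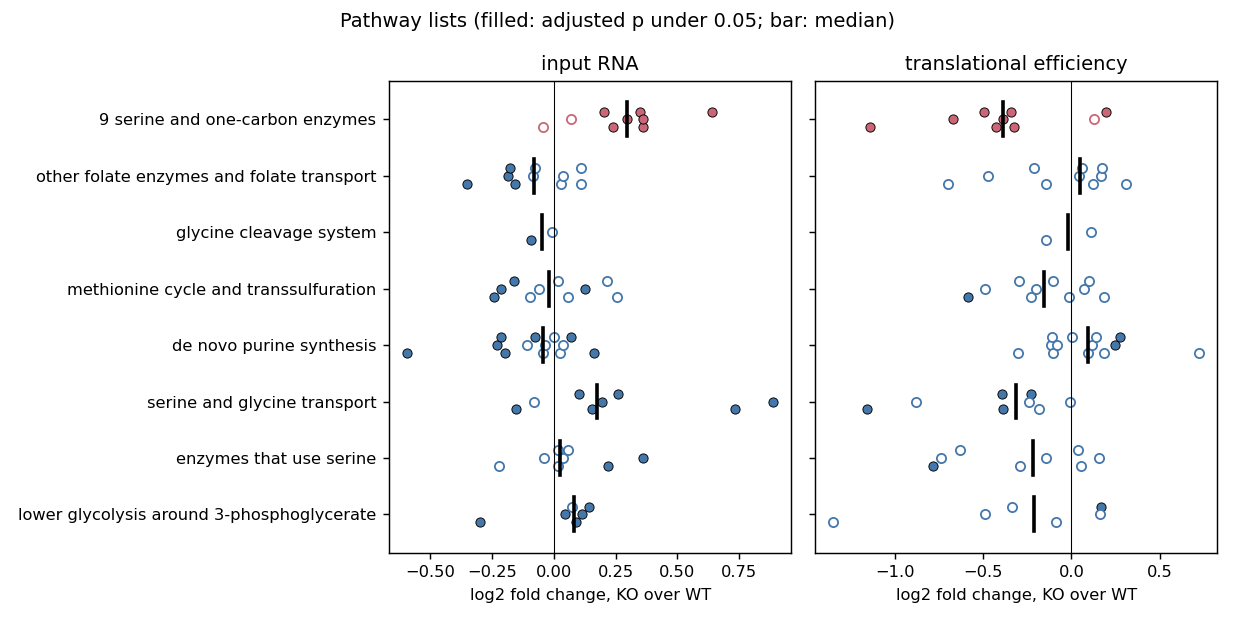
Log2 fold change of KO over WT (x axis) in input RNA (left) and translational efficiency (right) for the 9 enzymes (red) and 7 neighbouring lists (blue); each point is a gene, filled where adjusted p is under 0.05, and black bars are list medians. The enzymes' medians are 0.29 and -0.39, and those of serine and glycine transport 0.17 and -0.31.

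Folate conversion and purine synthesis use the one-carbon units that the pathway supplies. Of 10 measured genes of folate conversion and transport (of 14 listed), 4 fell in input, against 18.6% of all genes, with a median of -0.080. This count was 1 without WT input replicate 2, KO input replicate 1 or KO input replicate 2, and 0 with DESeq2, in limma without trend and with both kinds of library fitted together. Ggh (-0.35) and the mitochondrial folate carrier Slc25a32 (-0.18) were among the genes whose call was lost in those 6 settings. In footprints 2 fell, against 6.22% of all genes, and 0 fell without WT footprint replicate 1 or with DESeq2. Tyms, the thymidylate synthase, was one of them (-0.29; adjusted p = 0.207 with DESeq2).

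Of 13 genes of purine synthesis, 2 rose and 5 fell in input, against 17.9% and 18.6% of all genes. The increases numbered 0 without WT input replicate 2 or KO input replicate 2 and with DESeq2, and the decreases 3 with DESeq2. Adssl1 (-0.59), Gmps (-0.23) and Ppat (-0.20) fell in all 14 alternatives, and Prps2 (-0.21) in 10. In footprints 1 rose and 1 fell, against 6.3% and 6.22% of all genes. Paics, a bifunctional enzyme of purine synthesis, rose (0.34 ± 0.054 (SE), limma adjusted p = 5.6e-05) and Adssl1 fell (-0.89). Both footprint calls were lost in limma without trend, and DESeq2 gave no adjusted p for Adssl1. In translational efficiency 2 rose, against 5.11% of all genes: Paics (0.27), which was called in 16 of 19 alternatives, and Ppat (0.25), in 12 of 19. That count was 0 without WT input replicate 2 or KO input replicate 1, and 1 without any other 1 input or WT footprint library.

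Among 10 measured genes of the methionine cycle and transsulfuration (of 13 listed), 1 rose and 3 fell in input, near the 36.4% of all genes called in either direction. Mtap (-0.24) and Mat2a (-0.21), which makes S-adenosylmethionine, fell in all 14 alternatives, and Ahcyl2 (-0.16), named as Ahcy-like, in 10. Ahcy itself was not among the genes measured. The increase, of Adi1 (0.12), was lost without WT input replicate 2 or KO input replicate 1 and with DESeq2 (adjusted p = 0.311), and 2 genes rose without WT input replicate 1. In footprints 3 fell, against 6.22% of all genes: Adi1 (-0.46), the methionine synthase gene Mtr (-0.30) and Mtap (-0.25). That count was 1 without WT footprint replicate 2 or with DESeq2. Adi1 also fell in translational efficiency (-0.59), in 18 of 19 alternatives. Of the glycine cleavage system, 2 of 4 genes were measured, and Dld fell in input (-0.090), against 18.6% of all genes. The Dld call was lost without WT input replicate 1 (-0.052) or KO input replicate 2 and with DESeq2 (adjusted p = 0.267), limma without trend and both kinds fitted together.

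Of 8 measured enzymes that use serine, 2 rose in input, near the 17.9% of all genes. Sars, the cytosolic seryl-tRNA synthetase, rose from 1389 ± 1.68 (SD, n = 2) to 1785 ± 46.0 normalized reads in input in all 14 alternatives. It fell from 4916 ± 119 to 3665 ± 11.9 in footprints (log2 change -0.42 ± 0.037 (SE), limma adjusted p = 4.02e-09) and fell by 0.78 in translational efficiency. The other increase, of Sars2 (0.22), was lost without WT input replicate 2 or KO input replicate 2 and with DESeq2 (adjusted p = 0.298). Sptlc2, of sphingolipid synthesis, rose in footprints (0.17), a call lost without any 1 footprint library. In lower glycolysis around 3-phosphoglycerate, 4 of 6 measured genes rose in input, against 17.9% of all genes, by at most 0.14 for those named (Pgk1, 0.14; Pkm, 0.12; Eno1, 0.090). That count was 0 in limma without trend and 2 with both kinds of library fitted together. Bpgm fell in input (-0.30). Eno1 rose in footprints (0.26) and in translational efficiency (0.17), calls lost in limma without trend. In WT, mean footprints were far below mean input for Gapdh (164 against 25040), Pgk1 (13.3 against 6989) and Eno1 (3907 against 23123). Those of Pkm were above its input (22248 against 15432). Why Gapdh, Pgk1 and Eno1 had so few footprints was not tested, so their footprint and translational efficiency changes are uncertain.

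Genes with the profile most like a member's were found by Pearson correlation over the 8 libraries of log2(value + 1), centred within input and within footprints, among genes with at least 20 reads in every library. These correlations are high because the 8 points fall into WT and KO and only the closest genes are taken, and they carry no test. Closest to Shmt2 was Pck2, the mitochondrial phosphoenolpyruvate carboxykinase (r = 0.998), with log2 changes of 1.09 in input and -0.087 in footprints. Psat1 was closest to Cars, a cysteinyl-tRNA synthetase (r = 0.996; 0.61 and -0.22), and Mthfd2 to Nudt16l1 (r = 0.998; 0.29 and -0.57). Psph was followed most closely by Ap1s1 (r = 0.994) and the carrier Slc38a2 (r = 0.993). Mthfd1l was closest to Naa38 and Kif1c (both r = 0.998), Mthfd1 to Mmp14 (r = 0.998), Shmt1 to Cdkn2aipnl (r = 0.994), Phgdh to Fam174b (r = 0.989) and Aldh1l2 to Rab38 (r = 0.983). Among the members themselves, Shmt1 and Mthfd2 were the most alike (r = 0.980) and Shmt1 and Mthfd1 the most opposed (r = -0.917), while Shmt2 and Aldh1l2 (r = 0.957) and Psat1 and Shmt2 (r = 0.926) ran together.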

How the data were processed

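The authors deposited 1 table of 10453 genes with normalized read counts per library, treated as signal; per the submitters' processing notes, Bowtie (no version) and mm10 were used. Counter, annotation and strand: not given in the sources used here. All values are whole multiples of 1 read's worth (100% within 0.001 of a read), which gave the reads back. For translational efficiency, the deposited table holds the authors' log2 fold change, p-value, adjusted p-value and call; DESeq2's interaction on the recovered reads differed from it by over 0.001 in 0 of 10 genes compared. 16 date-like symbols were restored from gene IDs, and 0 sample columns were unmapped.

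limma-trend 3.58.1 (R 4.3.3) was fitted to log2(value + 1) over all genes whose mean value reached 1, for input and footprints alone and for the interaction over 8 libraries. That interaction gives a gene 1 variance for both kinds of library, although footprints vary more. Two-sided p-values were adjusted by Benjamini-Hochberg over all genes (threshold 0.05); fold changes are on the log2(value + 1) scale. edgeR 4.0.16 and DESeq2 1.42.0 on recovered reads were alternatives. The design named edgeR for raw counts and limma for normalized values, and the table held the latter. Fits were tested on simulated data.

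The members and lists were chosen with earlier results of these data known. Named genes are the 9 enzymes, Mettl5, up to 4 genes of each list and comparison with the largest change past the threshold, and the closest profiles, less some genes of the folate list that are not reported here; the other values given for Slc1a4, Slc38a2 and Sars were chosen after they were seen. Promoters come from RefSeq (GRCm38.p6), with 8 of 9 members matched. Coordinates are 1-based.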

Additional observations from a re-analysis of the deposited data

How the results depend on the processing

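The 7 input increases held in all 14 alternatives. In footprints, 2 enzymes rose with at least 20 reads in every library, with edgeR, with the replicate block and with both kinds of library fitted together. In limma without trend 0 rose and 0 fell (1 and 2 at an unadjusted p under 0.05; edgeR 2 and 4), and 1 fell with DESeq2; leaving out 1 library gave 1 to 3 decreases. In translational efficiency, the increase of Mthfd1 was lost (0 enzymes rose; 2 at an unadjusted p under 0.05, or 1 in limma without trend) with median-centred libraries, with the replicate block, with weights per kind of library and without trend. Leaving out 1 library gave 0 to 1 increases (Mthfd1l in place of Mthfd1 without WT footprint replicate 2) and 5 to 7 decreases, and limma without trend gave 1. Same-numbered libraries did not deviate together (correlations of -0.031 to 0.0055 over 7822 genes). As replicates varied little beyond read counting, this check could not show whether the numbers pair libraries. The replicate block gave 2 higher and 4 lower enzymes in footprints, and 0 and 7 in translational efficiency. Signs turned for 3 footprint values far from the threshold: Aldh1l2 (-0.15 to 0.092 when 1 library was left out, the highest without KO footprint replicate 1), Phgdh (-0.13 to 0.036, the highest without KO footprint replicate 2) and Mettl5 (-0.029 to 0.27, the lowest without WT footprint replicate 1). The cause was not tested.

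Over all genes, limma without trend gave 633 higher and 643 lower in input, 0 and 0 in footprints (1807 at an unadjusted p under 0.05; edgeR 728 and 745) and 48 and 85 in translational efficiency, against 1865 and 1938, 659 and 650, and 534 and 487. DESeq2 gave 815 and 906 in input and 236 and 224 in footprints, and both kinds fitted together 443 and 386, and 1210 and 1103. Leaving out 1 library gave 431 to 683 higher and 350 to 742 lower in footprints, and 195 to 850 and 213 to 869 in translational efficiency. Median centring multiplied footprint to input ratios by 1.17 in WT and 1.16 in KO.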
